A study of Mus musculus with 10 samples.

Results

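The Notch pathway was followed with 10 genes through all 5 groups of libraries: the receptors *Notch1*, *Notch2* and *Notch3*, the ligands *Jag1*, *Jag2*, *Dll1* and *Dll4*, and the target genes *Hes1*, *Hey1* and *Heyl*. They were picked by name, as members of the pathway that divides principal from intercalated cells, and are 10 of the 39273 genes in the table. The groups, of 2 libraries each, were ureteric bud (UB) organoids after 5, 10 and 20 days, collecting duct (CD) organoids and adult CD cells. UB organoids were grown from E11.5 ureteric bud cells of Wnt11-RFP +/- mice on a C57BL/6 x Swiss Webster background, in a medium (mUBCM) with no agent aimed at Notch. CD organoids were UB organoids moved at day 10, for a week, to a differentiation medium (CDDM) holding FGF9, the ROCK inhibitor Y27632, the MEK inhibitor PD0325901, aldosterone, vasopressin and DAPT. DAPT blocks γ-secretase, the protease that cuts Notch receptors, and its effect cannot be told apart from that of the other medium changes. Adult CD cells were sorted for Venus from the kidneys of Hoxb7-Venus mice about 2 months old, according to the design text, whereas the sample labels call them organoids and give them the embryonic age and genotype. Venus is driven there by *Hoxb7*, a gene of the ureteric lineage.

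Notch is a receptor that is activated by contact between neighbouring cells. A ligand of the Jagged or Delta-like family on one cell binds a receptor on the next, which is then cut by an ADAM protease and by γ-secretase, and the freed intracellular domain joins RBPJ in the nucleus to switch on *Hes* and *Hey* genes. In the collecting duct, cells that receive the signal become principal cells, which take up water and sodium, and cells that escape it become intercalated cells, which move acid and base. Intercalated cells are known to carry ligands and principal cells to hold *Hes1*, so that ligand and target sit in different cells of the same tubule.

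The libraries differed in several ways besides their groups. Total counts were between 22858971 and 24536676 at days 5 and 10 and between 11913613 and 16759872 in the other 6 libraries, so that 3 counts, the detection limit used here, were worth between 0.109 and 0.241 CPM (counts scaled to a common library size). A set of 4 Y-linked genes (*Eif2s3y*, *Ddx3y*, *Kdm5d*, *Uty*) summed to at most 0.875 CPM in the 4 libraries of days 5 and 10 and to between 229.8 and 295 CPM in the other 6, so the libraries of days 5 and 10 lacked the RNA of male cells that all others held. Markers of the ureteric lineage were present in every library (8 genes, between 3012 and 6623 CPM in sum). Endothelial markers (8 genes) summed to between 877 and 879 CPM in adult CD cells and to at most 33.0 CPM elsewhere, proximal tubule markers (6 genes) to between 3502 and 4183 CPM against at most 34.0 CPM, and markers of the loop of Henle and distal convoluted tubule (4 genes) to between 3718 and 3959 CPM against at most 6.58 CPM, so the sorted adult cells carried marker RNA of other cell types too. Stromal and mural markers (7 genes) summed to between 355 and 373 CPM in adult CD cells, to 324 and 174 CPM in the CD organoids, and to at most 30.9 CPM in UB organoids. Nothing in the sources says that 2 libraries of a group came from separate cultures, so p-values measure the spread between these libraries, which may be technical.

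All 10 members passed the filter on low counts. CPM were scaled with TMM factors, and a gene passed the test at an adjusted p of at most 0.01 in the quasi-likelihood test of edgeR, adjusted by Benjamini and Hochberg's method over the 24410 genes tested. All adjusted p below come from that test. A change of more than 4-fold was counted apart. Fold changes are log2 with the standard error (SE) derived from the test statistic, and n is 2 for every group.

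**Figure D1:**
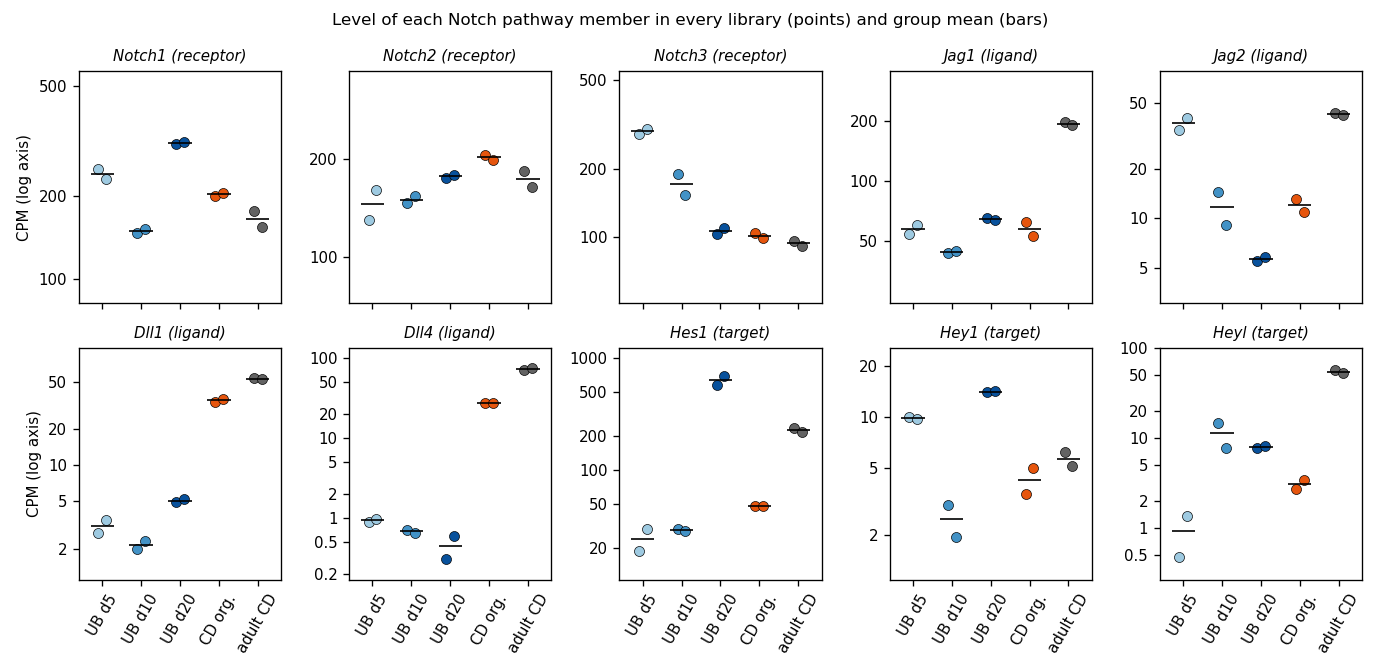
CPM of each member on a log axis, with 1 point per library and a bar at the mean of each group (UB organoids of days 5, 10 and 20, CD organoids and adult CD cells). *Dll1* and *Dll4* stood in the CD organoids far above every UB library, while *Hes1* was highest at day 20, at 571 and 689 CPM.

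Against UB organoids of day 10, the stage at which the medium was changed, CD organoids showed the largest differences in the Delta-like ligands. In this comparison 6 of the 10 members were higher in CD organoids, against 18.1% of all genes tested, and 2 were lower, against 19.8%. Without CD organoid replicate 1 the number higher was 3. *Dll1* and *Dll4* passed 4-fold, as did 10.7% of all genes in either direction. The median log2 fold change was 0.43 over the members and -0.15 over all genes. These groups also differed in Y-linked RNA and in total counts, as given above, and the part of this in the members' values was not tested. In bulk RNA, here and in all later comparisons, fewer cells of a type and less RNA per cell cannot be told apart.

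*Dll4*, a Delta-like ligand best known from sprouting blood vessels, was barely detected in UB organoids and plainly present in CD organoids. It stood at 0.897 and 0.980 CPM at day 5, 0.714 and 0.6565 CPM at day 10, 0.3035 and 0.595 CPM at day 20, 27.3 and 27.5 CPM in CD organoids and 70.9 and 74.2 CPM in adult CD cells. No library of one group lay within the range of another, and the 3 UB groups together stayed below 1 CPM, on 5 to 24 counts a library. The log2 fold change of CD organoids was 5.22 ± 0.166 (SE) against day 10 (adjusted p = 2.95e-11) and 5.79 ± 0.195 (SE) against day 20 (adjusted p = 7.54e-11). The libraries of day 10 lacked the Y-linked RNA that those of day 20 and of the CD organoids held, and the part of this difference in the first value was not tested. The 8 endothelial markers summed to 5.41 and 5.695 CPM in the CD organoids. Among them *Egfl7* and *Eng* stood at 1.52 to 1.64 CPM and the other 6 (*Pecam1*, *Cdh5*, *Kdr*, *Tek*, *Tie1* and *Emcn*) at 0.802 CPM or less. Against day 10, *Egfl7* and *Eng* were lower by the test and the other 6 did not pass. Markers of stroma and mural cells were higher in CD organoids than at day 10 for 5 of 7 genes (18.1% of all genes) and lower for *Cspg4* (19.8%). Their sum was 324 and 174 CPM in the CD organoid libraries. The 4 leukocyte markers summed to between 46.1 and 52.1 CPM against 13.9 CPM or less in UB organoids. Most of that sum was *Ptprc* (mean 40.55 CPM in CD organoids), followed by *Cd68* (8.43 CPM). *Csf1r* (0.107 CPM) and *Cd3e* (0.0401 CPM) were near 0 there and did not pass against day 10. The part of stromal, mural or leukocyte RNA in the level of *Dll4* was not tested. An antisense gene on the other strand of *Dll4*, *Gm14207*, had a mean of 9.65 CPM in CD organoids, 3.13 CPM in adult CD cells and at most 0.5955 CPM in UB organoids, and since the sources do not say that the counting used strand, reads of the pair cannot be told apart.

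*Dll1*, the other Delta-like ligand measured here, was low but detected in every UB library. Its level was 2.69 and 3.47 CPM at day 5, 1.98 and 2.33 CPM at day 10, 4.92 and 5.22 CPM at day 20, 33.75 and 36.0 CPM in CD organoids and 53.6 and 52.3 CPM in adult CD cells. Here too no groups overlapped, and the order ran from adult CD cells through CD organoids to day 20, day 5 and day 10. CD organoids were higher than day 10 by a log2 fold change of 3.98 ± 0.147 (SE, adjusted p = 1.04e-10) and higher than day 20 by 2.77 ± 0.140 (SE, adjusted p = 2.46e-09). *Dll1* had already risen in mUBCM between days 10 and 20, by 1.21 ± 0.167 (SE, adjusted p = 1.29e-04), and its log2 fold change from day 5 to day 10 was -0.50 (adjusted p = 0.0355), which did not pass.

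The 250 bases before the start sites of these ligands are shown because *Dll1* and *Dll4* were the 2 members past 4-fold in CD organoids against day 10. *Dll4* lies on chromosome 2 of GRCm38 from 119325784 to 119335962 on the + strand, and *Dll1* on chromosome 17 from 15367354 to 15376872 on the - strand (GENCODE M21). The sequences are from RefSeq on GRCm38.p6, for *Dll4* chr2:119325534-119325783 and for *Dll1* chr17:15376933-15377182, the outer of its 2 listed start sites, and each is read 5′ to 3′ on the strand of its gene. Capitals mark matches to CACGNG on either strand, the class C site to which proteins of the Hes and Hey families are known to bind.
Dll4: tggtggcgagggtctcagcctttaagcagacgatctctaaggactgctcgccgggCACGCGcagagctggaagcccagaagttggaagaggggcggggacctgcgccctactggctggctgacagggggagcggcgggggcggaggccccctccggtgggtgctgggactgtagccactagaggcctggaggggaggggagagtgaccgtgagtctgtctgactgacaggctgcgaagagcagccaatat
Dll1: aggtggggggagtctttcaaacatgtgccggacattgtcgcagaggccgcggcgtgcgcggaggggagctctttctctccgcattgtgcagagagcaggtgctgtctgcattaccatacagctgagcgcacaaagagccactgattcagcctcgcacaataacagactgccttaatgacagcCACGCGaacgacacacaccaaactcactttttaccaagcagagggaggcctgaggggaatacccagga
The match begins at base -195 for *Dll4* and at base -68 for *Dll1*, counted from the start site. RefSeq windows of 250 bases before to 50 bases after the start were at hand for 7 of the 10 members, with 8 start sites in all. CACGNG was found in 7 of these 8 windows and in 27.5% of the 32851 windows of all genes. The GC content of the members' windows had a median of 66.0%, against 52.7% for all windows, and its part in this difference was not tested. CACGNG includes CACGTG, the E-box read by many other factors. The core of the RBPJ site, GTGGGAA on either strand, was in 0 of the 8 windows and in 6.38% of all. CACGNG was chosen after the sequences had been seen.

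**Figure D2:**
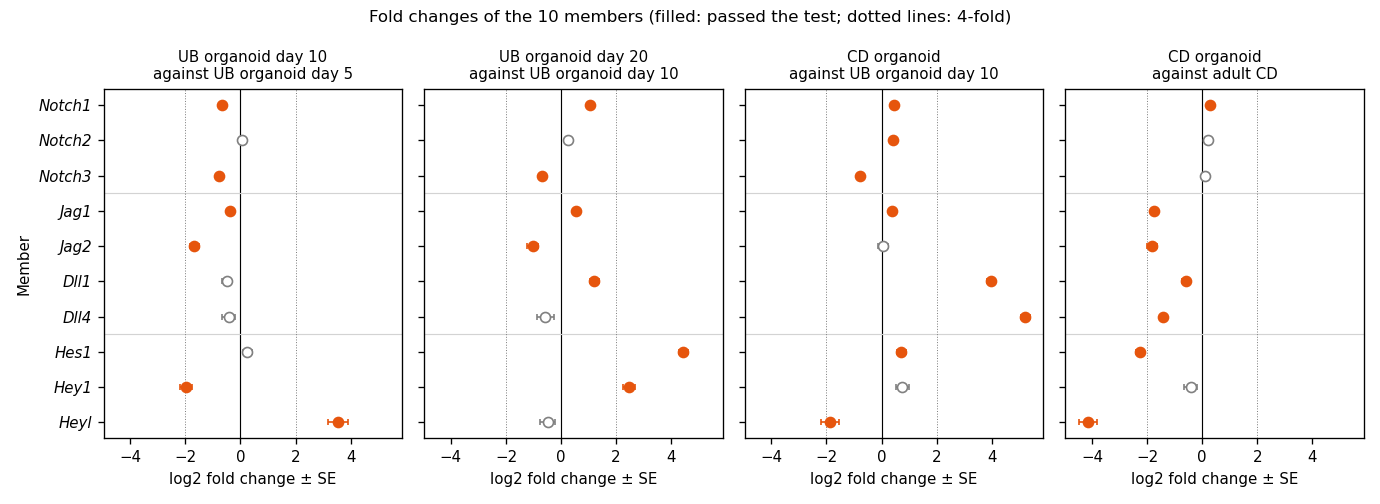
Log2 fold changes of the 10 members with their SE in 4 comparisons, filled where the test was passed and open where it was not, with dotted lines at 4-fold. In CD organoids against day 10 *Dll4* (5.22) and *Dll1* (3.98) lie far to the right, and against adult CD cells all 4 ligands lie to the left of 0.

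The Jagged ligands gave log2 fold changes of 0.39 and 0.05 in CD organoids against day 10. *Jag1* (chromosome 2, 137081456 to 137116644), a ligand known from intercalated cells as well as from many other epithelia, stood at 54.1 and 60.25 CPM at day 5, 43.7 and 44.3 CPM at day 10, 65.4 and 63.3 CPM at day 20, 62.2 and 52.8 CPM in CD organoids and 197 and 189.8 CPM in adult CD cells. The adult libraries were apart from all others, whereas the libraries of day 5 and of the CD organoids overlapped. *Jag1* was higher in CD organoids than at day 10 by 0.39 ± 0.0878 (SE, adjusted p = 0.00228), a call that was lost without CD organoid replicate 1 (log2 fold change 0.26, adjusted p = 0.0584), without a composition factor (0.29, adjusted p = 0.0127) and in a fit of only the 4 libraries compared (0.40, adjusted p = 0.0137). It was lower at day 10 than at day 5 by a similar step (log2 fold change -0.38, adjusted p = 0.00389), a call lost without day 5 replicate 2 (adjusted p = 0.0431), with upper-quartile factors (adjusted p = 0.0108) and in a fit of 4 libraries (adjusted p = 0.0289). *Jag2* (chromosome 12, 112907819 to 112929776) was high at both ends of the series, at 34.2 and 40.7 CPM at day 5, 14.4 and 9.08 CPM at day 10, 5.52 and 5.88 CPM at day 20, 13.2 and 11.0 CPM in CD organoids and 43.0 and 42.4 CPM in adult CD cells. Its levels in CD organoids and at day 10 overlapped, with a log2 fold change of 0.05 ± 0.189 (SE, adjusted p = 0.871). It fell from day 5 to day 10 by 1.67 on the log2 scale (SE 0.173, adjusted p = 9.41e-06) and again from day 10 to day 20 by 1.03 (SE 0.203, adjusted p = 0.00178), a step that missed the threshold without either day 20 library (adjusted p = 0.0262 without replicate 1 and 0.0172 without replicate 2) and in a fit of 4 libraries (adjusted p = 0.0266).

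The mix of ligands therefore differed between the groups when levels were set against gene length. By the deposited RPKM (reads scaled to gene length and library size), the 4 ligands summed to 12.2 ± 1.30 at day 5, 7.83 ± 0.268 at day 10, 10.8 ± 0.171 at day 20, 20.8 ± 0.855 in CD organoids and 55.3 ± 0.683 in adult CD cells (SD, n = 2). *Jag1* supplied 80.7% ± 3.39 of the sum at day 10 and 87.4% ± 1.09 at day 20, but 40.1% ± 3.03 in CD organoids and 49.9% ± 1.01 in adult CD cells (SD, n = 2). *Dll4* went from 2.00% ± 0.0541 of the sum at day 10 to 30.6% ± 1.42 in CD organoids and 29.8% ± 1.17 in adult CD cells (SD, n = 2), and the last 2 values lay within 1 SD of each other. *Dll1* took 24.1% ± 2.07 of the sum in CD organoids and 13.4% ± 0.137 in adult CD cells (SD, n = 2). In CD organoids the Delta-like ligands together thus outweighed *Jag1*, which in UB organoids of every age was the main ligand. The lengths in the table exceed the exons of each gene in GENCODE M21, and with exon lengths *Jag1* supplied 36.5%, *Dll1* 30.7% and *Dll4* 26.4% of the sum in CD organoids, so the order of *Dll1* and *Dll4* rests on the length used.

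**Figure D3:**
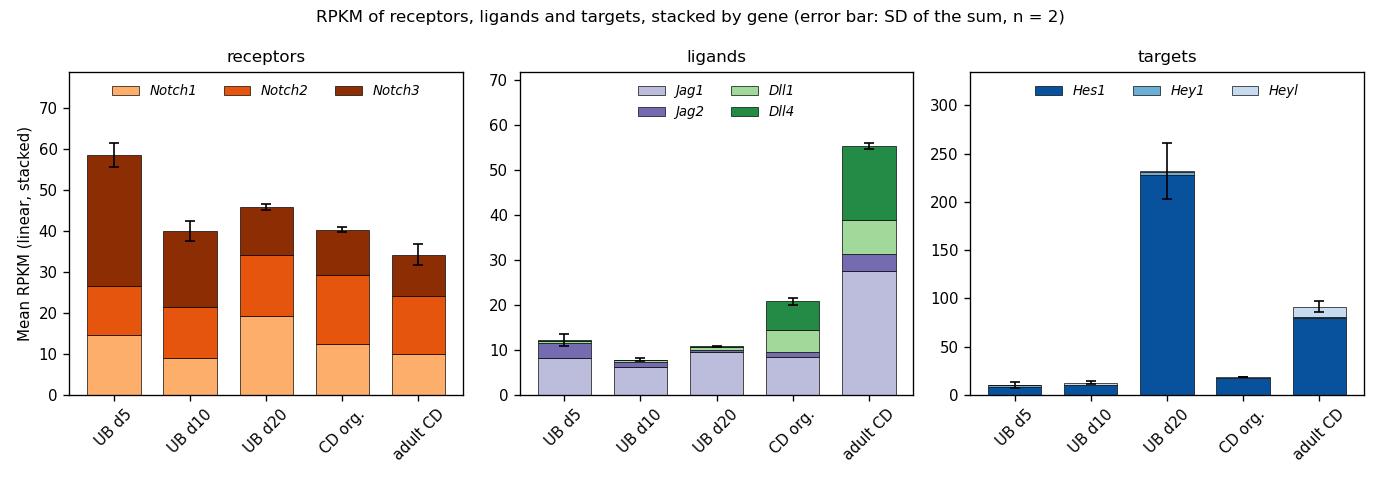
Mean deposited RPKM of the receptors, ligands and targets on linear axes, stacked by gene for each group, with error bars for the SD of the class sum (n = 2). The ligand sum was made mostly of *Jag1* in UB organoids and held large parts of *Dll1* and *Dll4* in CD organoids and adult CD cells, and the target sum was almost all *Hes1*.

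No receptor passed 4-fold in any of the 6 comparisons. *Notch1* (chromosome 2, 26457903 to 26516663) and *Notch2* (chromosome 3, 98013527 to 98150361) are the receptors known to be needed for principal cells, and *Notch3* (chromosome 17, 32120820 to 32166852) is best known from the smooth muscle of vessels. *Notch3* stood at 287 and 303 CPM at day 5, 191 and 152.5 CPM at day 10, 102 and 109 CPM at day 20, 103 and 98.3 CPM in CD organoids and 95.7 and 90.7 CPM in adult CD cells. Day 5 was highest, day 10 next, and the libraries of day 20 and of CD organoids overlapped. *Notch3* was lower at day 10 than at day 5 (log2 fold change -0.78 ± 0.0939 SE, adjusted p = 3.24e-05) and at day 20 than at day 10 (-0.70 ± 0.0958 SE, adjusted p = 1.24e-04). Between CD organoids and day 20 its log2 fold change was -0.07, and between CD organoids and adult CD cells 0.11 ± 0.0986 (SE, adjusted p = 0.375).

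*Notch1* went down and up again in mUBCM. It was at 252 and 231 CPM at day 5, 147 and 152 CPM at day 10, 309 and 315 CPM at day 20, 200.5 and 206 CPM in CD organoids and 176 and 155 CPM in adult CD cells, and no groups overlapped. The step from day 5 to day 10 was -0.69 ± 0.0772 (SE, adjusted p = 1.84e-05) and that from day 10 to day 20 was 1.06 ± 0.0777 (SE, adjusted p = 6.24e-07), both log2 fold changes. CD organoids lay between these days, higher than day 10 by 0.44 ± 0.0777 (SE, adjusted p = 3.19e-04) and lower than day 20 by a log2 fold change of -0.62 ± 0.0776 (SE, adjusted p = 1.65e-05). *Notch2* was the steadiest member, at 130.0 and 161 CPM at day 5, 146.5 and 154 CPM at day 10, 175 and 179 CPM at day 20, 206 and 199 CPM in CD organoids and 183.5 and 164 CPM in adult CD cells. The libraries of days 5 and 10 overlapped, as did those of day 20 and adult CD cells. Of the 6 comparisons it passed in that of CD organoids with day 10 (0.43 ± 0.0940 SE, adjusted p = 0.00168), and there it missed the threshold without CD organoid replicate 1 (adjusted p = 0.0208).

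Set against length, the leading receptor differed between the groups. The sum of the 3 receptors was 58.4 ± 2.99 RPKM at day 5, 40.0 ± 2.37 at day 10, 45.9 ± 0.785 at day 20, 40.3 ± 0.599 in CD organoids and 34.2 ± 2.56 in adult CD cells (SD, n = 2). *Notch3* made up 54.6% ± 0.108 of it at day 5 and 46.3% ± 4.67 at day 10, *Notch1* was first at day 20 with 42.2% ± 0.373, and *Notch2* was first in CD organoids with 41.6% ± 0.409 and in adult CD cells with 41.4% ± 0.368 (SD, n = 2). For *Notch2* these last 2 shares lay within 1 SD of each other.

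Each of the 3 targets had a course of its own. *Hes1* (chromosome 16, 30064384 to 30067796), a repressor that holds back differentiation and is a direct target of Notch in many tissues, stood at 18.7 and 29.8 CPM at day 5, 29.3 and 28.6 CPM at day 10, 571 and 689 CPM at day 20, 47.7 and 47.9 CPM in CD organoids and 237 and 219 CPM in adult CD cells. Both day 20 libraries were above every other library, the adult ones came next, and days 5 and 10 overlapped. *Hes1* rose from day 10 to day 20 by a log2 fold change of 4.44 ± 0.168 (SE, adjusted p = 1.19e-09). In the same comparison *Notch1* (1.06), *Jag1* (0.55), *Dll1* (1.21) and *Hey1* (2.48) were also higher by the test. *Notch3* (-0.70) and *Jag2* (-1.03) were lower, *Notch2* (0.24) and *Heyl* (-0.48) did not pass, and *Dll4* was below 1 CPM at both days. In CD organoids, which had been kept in DAPT, *Hes1* was higher than at day 10 by 0.72 ± 0.160 (SE, adjusted p = 0.00194). It was lower there than at day 20 (log2 fold change -3.72 ± 0.164 SE, adjusted p = 7.32e-10). The first of these calls missed the threshold without either CD organoid library (adjusted p = 0.0171 without replicate 1 and 0.0128 without replicate 2), although the log2 fold change stayed between 0.71 and 0.75 in the leave-one-out fits. Between days 5 and 10 the log2 fold change was 0.25 (adjusted p = 0.258) and it passed without day 5 replicate 2 (0.63, adjusted p = 0.00252).

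*Hes1* is also known to respond quickly to serum, stress and cell handling, as do the immediate early genes. A list of 12 such genes, among them *Fos*, *Egr1* and *Atf3*, summed to between 361 and 399 CPM in the libraries of days 5 and 10, to 7034 and 8800 CPM at day 20, to 308 and 334 CPM in CD organoids and to 21080 and 23560 CPM in adult CD cells. By the test, all 12 were higher at day 20 than at day 10 (8.76% of all genes). All 12 were lower in CD organoids than in adult CD cells (21.6%). *Hes1* and this sum were thus high in the same 4 libraries, but in opposite order between day 20 and adult CD cells, and the part of such a response in *Hes1* was not tested. The list was chosen after the data had been seen.

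**Figure D4:**
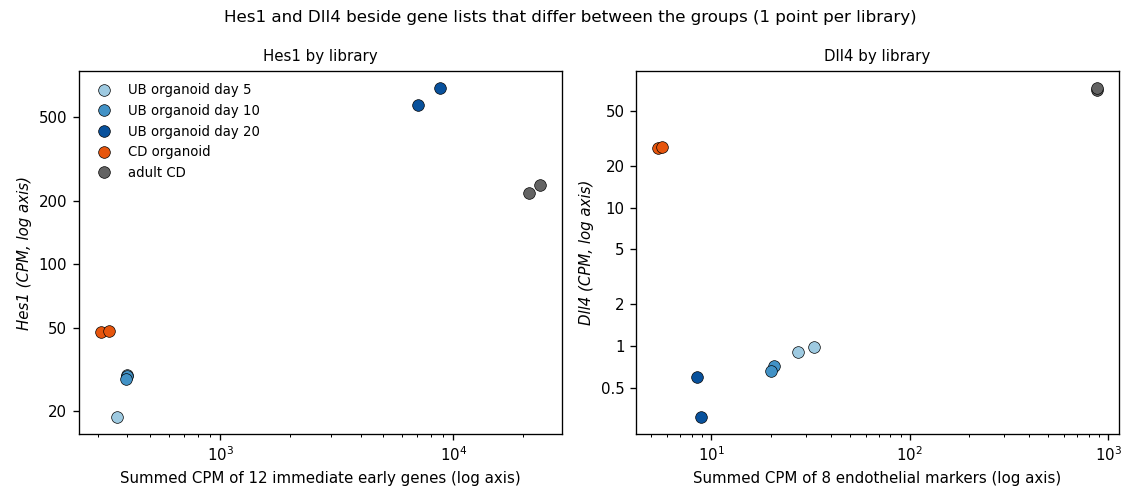
Left, *Hes1* against the summed CPM of 12 immediate early genes, and right, *Dll4* against the summed CPM of 8 endothelial markers, with 1 point per library and log axes (points of day 5 replicate 2 and day 10 lie on each other on the left). *Hes1* was high in the 4 libraries in which the sum was 7034 CPM or more, and *Dll4* stood at 27.3 and 27.5 CPM in the CD organoids, in which the endothelial sum was lowest.

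*Hey1* and *Heyl*, repressors of the related Hey family, were low in most groups. *Hey1* (chromosome 3, 8663359 to 8667256) stood at 9.99 and 9.715 CPM at day 5, 3.01 and 1.97 CPM at day 10, 13.9 and 14.2 CPM at day 20, 3.49 and 4.97 CPM in CD organoids and 6.18 and 5.11 CPM in adult CD cells. No groups overlapped, and as for *Notch1* day 10 was the lowest group and day 20 the highest. *Hey1* fell from day 5 to day 10 by 1.97 on the log2 scale (SE 0.216, adjusted p = 1.58e-05), rose to day 20 by 2.48 ± 0.218 (SE, adjusted p = 2.95e-06) and was lower in CD organoids than at day 20 (-1.73 ± 0.222 SE, adjusted p = 2.03e-05). Against day 10, CD organoids gave 0.75 ± 0.241 (SE, adjusted p = 0.02005), which did not pass, and which passed without day 10 replicate 1 (1.08, adjusted p = 0.00163). *Heyl* (chromosome 4, 123233556 to 123249875), known from the wall of blood vessels, was at 0.470 and 1.35 CPM at day 5, 14.8 and 7.66 CPM at day 10, 7.83 and 8.20 CPM at day 20, 2.71 and 3.37 CPM in CD organoids and 56.9 and 52.7 CPM in adult CD cells. Its replicates were far apart at days 5 and 10, and days 10 and 20 overlapped. *Heyl* rose from day 5 to day 10 by 3.54 ± 0.357 (SE, adjusted p = 7.64e-06), a value that was 4.42 without day 5 replicate 2, and was lower in CD organoids than at day 10 (-1.87 ± 0.330 SE, adjusted p = 3.10e-04). From day 10 to day 20 its log2 fold change was -0.48 (adjusted p = 0.229), of the other sign without day 10 replicate 1 (0.09) and past the threshold without day 10 replicate 2 (-0.86, adjusted p = 0.0018).

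Among the UB organoids the members moved in different directions over time. From day 5 to day 10, 1 member was higher (10.5% of all genes) and 5 were lower (11.8%), namely *Notch1*, *Notch3*, *Jag1*, *Jag2* and *Hey1*, and *Heyl* passed 4-fold (3.41% of all genes). Without day 5 replicate 2 there were 2 members higher, and without day 10 replicate 1 there were 3 past 4-fold. Without a composition factor 65.6% of all calls in this comparison were higher, against 47.0% with TMM factors, and *Jag1* missed the threshold (adjusted p = 0.0519). From day 10 to day 20, 5 members were higher (8.76% of all genes) and 2 were lower (9.94%), and *Hes1* and *Hey1* passed 4-fold (3.39%). The 5 that rose were *Notch1*, *Jag1*, *Dll1*, *Hes1* and *Hey1*, and the 2 that fell were *Notch3* and *Jag2*, of which 1 was left without either day 20 library. Both comparisons use the day 10 libraries, so they are not independent. Days 10 and 20 also differed in Y-linked genes and immediate early genes, as given above, and the part of these differences in the members' values was not tested.

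CD organoids and day 20 UB organoids differed by 3 members that were higher in CD organoids (16.8% of all genes), namely *Jag2*, *Dll1* and *Dll4*, and 4 that were lower (17.1%), namely *Notch1* and the 3 targets. *Dll1*, *Dll4* and *Hes1* passed 4-fold (9.46%). *Jag2* was higher by 1.08 ± 0.213 (SE, adjusted p = 8.57e-04), and lost the call without day 20 replicate 1 (adjusted p = 0.011) or CD organoid replicate 1 (adjusted p = 0.0161). *Heyl* was lower (-1.39 ± 0.349 SE, adjusted p = 0.00502), and missed the threshold in each fit that left out 1 of these 4 libraries (adjusted p between 0.0194 and 0.0618).

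Against adult CD cells, the question is how near the organoids came to the tissue they model. In CD organoids 1 member was higher than in adult CD cells (18.6% of all genes) and 6 were lower (21.6%), and *Hes1* and *Heyl* passed 4-fold (14.3%). Ligands and targets made up the lower side. The log2 fold change was -1.75 ± 0.0875 (SE, adjusted p = 1.48e-09) for *Jag1*, -1.81 ± 0.185 (SE, adjusted p = 1.81e-06) for *Jag2* and -1.40 ± 0.114 (SE, adjusted p = 1.92e-07) for *Dll4*. *Dll1* was the closest of the ligands (-0.60 ± 0.118 SE, adjusted p = 7.04e-04), a call lost without CD organoid replicate 1 (adjusted p = 0.0152), without adult CD replicate 1 (adjusted p = 0.013) and without a composition factor (-0.21, adjusted p = 0.166). Among targets *Heyl* was lower by the largest step (-4.16 ± 0.321 SE, adjusted p = 1.17e-07), *Hes1* was lower as well (-2.25 ± 0.158 SE, adjusted p = 4.38e-08), and *Hey1* gave -0.42 ± 0.238 (SE, adjusted p = 0.167). The receptors stood nearest to the adult cells, with *Notch1* higher by 0.29 ± 0.0783 (SE, adjusted p = 0.00636), a call that DESeq2 did not make (adjusted p = 0.0203) and that was lost without either day 20 library, either CD organoid library or adult CD replicate 2 (adjusted p between 0.0181 and 0.119).

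The adult libraries also held marker RNA of vessels. All 8 endothelial markers were higher in adult CD cells than in CD organoids by the test (21.6% of all genes). *Pecam1* was at 156 and 159 CPM and *Cdh5* at 153 and 140.5 CPM in the adult libraries. *Notch4*, the receptor of endothelium, stood there at 75.2 and 71.4 CPM and at no more than 4.19 CPM in any other library, and *Mfng*, which adds sugar to Notch receptors, at 6.41 and 5.97 CPM against 0.204 CPM or less. The part of endothelial RNA in the adult levels of *Dll4*, *Jag1*, *Jag2*, *Hey1* and *Heyl* was not tested. Nor was the part of RNA from the proximal tubule, loop of Henle and distal convoluted tubule, whose markers are given above, in the adult level of any member, *Hes1* included. Without a composition factor the median over all genes in CD organoids against adult CD cells moved by 0.34 (log2) and 66.2% of all calls were higher in CD organoids, against 46.2% with TMM factors, and *Notch2* (0.61, adjusted p = 6.2e-05) and *Notch3* (0.51, adjusted p = 3.5e-04) then passed as well.

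Compared directly with UB organoids of day 10, adult CD cells had 7 members higher (26.7% of all genes), which were all 4 ligands and all 3 targets, and *Notch3* lower (25.7%). *Jag1*, *Dll1*, *Dll4*, *Hes1* and *Heyl* passed 4-fold, as did 22.5% of all genes. The log2 fold changes were 6.62 ± 0.163 for *Dll4*, 4.58 ± 0.147 for *Dll1*, 2.97 ± 0.160 for *Hes1* and 2.14 ± 0.0869 for *Jag1* (SE), with adjusted p of 1.30e-09 or less. *Hey1* was higher by 1.17 ± 0.233 (SE, adjusted p = 5.91e-04), a call lost without adult CD replicate 1 (adjusted p = 0.0144) and without a composition factor (0.69, adjusted p = 0.0182). Without a composition factor 35.5% of all calls were higher, against 50.9% with TMM factors, the median over all genes moved by -0.43 (log2), and *Notch1* and *Notch2*, which had not passed (0.14 and 0.21), took the opposite sign (-0.34 and -0.27). This comparison shares its day 10 libraries with that of the CD organoids, so the 2 sets of values stand side by side and no overlap between them was computed. Adult CD cells and day 10 also differed in Y-linked RNA and in total counts, and the part of this in the members' values was not tested.

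The cell types that Notch divides were both represented in CD organoids by their markers. The 10 principal cell genes summed to between 117 and 232 CPM in UB organoids, to between 1389 and 1556 CPM in CD organoids and to between 12570 and 13050 CPM in adult CD cells, and 8 of the 10 were higher in CD organoids than at day 10 (18.1% of all genes). Against adult CD cells 9 of the 10 were lower and the last did not pass, with a median log2 fold change of -2.48. The 11 intercalated cell genes summed to at most 8.13 CPM in UB organoids, between 2262 and 2379 CPM in CD organoids and between 3658 and 3761 CPM in adult CD cells, and all 11 were higher in CD organoids than at day 10. Against adult CD cells 3 of the 11 were higher (18.6% of all genes) and 6 were lower (21.6%), with a median log2 fold change of -0.55. The lower ones included *Slc4a1*, the anion exchanger of type A cells (mean 2.51 against 538 CPM), *Slc26a4*, that of type B cells (50.1 against 298 CPM), and *Aqp6*, a water channel family member of intercalated cells (4.21 against 645 CPM). *Foxi1*, the transcription factor that makes intercalated cells, stood at 508 and 472 CPM in CD organoids, above the 169 CPM of both adult libraries, and *Elf5*, a transcription factor of principal cells, at 59.0 and 52.6 CPM, below the 77.0 and 75.2 CPM of the adult libraries. These 5 genes were singled out after their values had been seen. Which of these cells held *Dll1* and *Dll4* cannot be told apart in bulk libraries.

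The rest of the pathway was read from lists of 48 genes, of which 47 were tested. Against day 10, CD organoids had 15 of these 47 higher, against 18.1% of all genes, and 8 lower, against 19.8%, with a median log2 fold change of 0.06 beside -0.15 over all genes. The proteases and their partners that cut the receptors were higher in 7 of 10 cases. Among them were *Adam10* (log2 fold change 1.01, adjusted p = 2.96e-08), which cuts the receptor once a ligand has bound, and 2 γ-secretase subunits. These were *Ncstn* (0.78, adjusted p = 2.00e-07) and *Psen2* (1.10, adjusted p = 8.29e-06). DAPT acts on that enzyme, and its part in these values was not tested. In adult CD cells against day 10, 7 of the 10 genes were also higher (26.7% of all genes) and 2 were lower (25.7%). There the log2 fold change was 0.89 for *Psen2*, 0.02 for *Adam10* and -0.63 for *Ncstn*. In the nuclear complex 1 of 8 was higher and 2 were lower, among them *Rbpj*, the DNA-binding partner of the receptor (log2 fold change -0.86, adjusted p = 1.49e-06). In adult CD cells against day 10 *Rbpj* gave -0.89. Of the 7 enzymes that put sugars on the receptors 1 was higher and 4 were lower. The one past 4-fold was *Lfng*, which tunes the response to Delta-like against Jagged ligands, at 21.2 and 27.0 CPM at day 10 and 4.77 and 3.93 CPM in CD organoids (log2 fold change -2.45, adjusted p = 1.56e-07). Of 12 ubiquitin ligases and endocytic regulators 5 were higher and 1 was lower. *Neurl1b*, which helps ligands to be taken up into the cell, rose from a mean of 3.91 to 73.5 CPM (log2 fold change 4.21, adjusted p = 9.22e-12).

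Of the 6 further *Hes*, *Hey* and feedback genes tested, 1 was higher in CD organoids than at day 10 (18.1% of all genes). It was *Hes6*, a relative of *Hes1*, at 36.95 and 34.1 CPM at day 10 and 46.3 and 43.9 CPM in CD organoids (log2 fold change 0.34, adjusted p = 0.00587). The other 5 had means of 1.32 CPM or less at day 10 and 1.24 CPM or less in CD organoids. *Nrarp*, a feedback inhibitor that Notch itself switches on, was at 1.59 and 1.06 CPM at day 10, 0.570 and 0.882 CPM in CD organoids and 5.65 and 6.60 CPM in adult CD cells, and CD organoids were lower than adult CD cells by a log2 fold change of -3.00 (adjusted p = 3.91e-06). *Hes5* had at most 0.264 CPM in any library. Against adult CD cells, 12 of the 47 genes were higher in CD organoids (18.6% of all genes) and 10 were lower (21.6%), and 6 of these passed 4-fold (14.3%). Besides *Notch4*, *Mfng* and *Nrarp* these were *Aph1c*, a γ-secretase subunit (log2 fold change -2.48, adjusted p = 6.79e-08), and the Deltex genes *Dtx4* (4.10, adjusted p = 1.09e-11) and *Dtx1* (2.44, adjusted p = 4.80e-06), which regulate the receptors inside the cell. *Dtx4* was at 135 and 129.9 CPM in CD organoids, between 97.4 and 135.1 CPM in UB organoids and at 7.54 and 7.78 CPM in adult CD cells. *Adam10*, *Ncstn*, *Psen2*, *Rbpj* and *Hes5* were picked after their values had been seen.

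The genes with courses most like those of *Hes1* and *Jag1* were looked up among the 14688 genes with a mean of at least 1 CPM, by Pearson's r of log2(CPM + 1) over the 10 libraries. For *Hes1* they were *Eva1c* (0.986), *Gm17971* (0.982), *Alad* (0.975), *Egr4* (0.973) and *Cst3* (0.971). *Egr4* belongs to the same family as the immediate early gene *Egr1* and was detected in day 20 organoids (mean 9.13 CPM) and adult CD cells (4.63 CPM), with 0.0214 CPM or less in the other groups. For *Jag1* they were *Wfdc15b* (0.995), *Prdm16os* (0.994), *P2ry2* (0.993), *Dip2c* (0.992) and *Eif2ak3* (0.992), all highest in adult CD cells. With 5 groups of 2 libraries such values of r mostly express the order of the groups, and the libraries also share depth and cell type content.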

How the data were processed

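The deposited table lists 39273 genes for 10 libraries. Its counts are whole numbers. The paper describes Partek Flow with STAR, mm10, GENCODE M24 and the E/M model of Partek, which splits a read with several matches between genes. The labels' processing notes name STAR, FastQC 0.11.8, cutadapt 2.5, Trimmomatic 0.36, edgeR 3.28.1 and GRCm38.p6. The sources do not settle which of these descriptions holds for the counts, so counts of overlapping genes are uncertain. RPKM deposited by the authors served for shares within classes. A signal deposited under the name TMM, which is counts rescaled per library, was not used. The paper names Direct-zol and KAPA Stranded kits, the labels QIAgen RNeasy and Illumina TruSeq.

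A gene entered the test when its summed count reached 10, which left 24410, tested with edgeR 4.0.16 in R 4.3.3 in 1 fit of all libraries (TMM factors between 0.792 and 1.12, prior count 1), a step tested on simulated data. The limit of 3 counts covers counting error only. Replicates differed beyond sampling noise in every group, but unequally. Chi-square per degree of freedom, which grows with that difference, was 10.7 at day 5, 25.4 at day 10 and 2.88 at day 20. It was 2.725 in CD organoids and 4.97 in adult CD cells. The fit took 1 spread per gene for all groups, so adjusted p for comparisons with days 5 and 10 may be too small. Positions came from GENCODE M21. Named are all members and, per pathway list, up to 5 genes past 4-fold in CD organoids against day 10 or adult CD cells, with others marked. Members and lists were chosen with earlier results of these data known. Alternatives were other scalings, filters, prior counts and thresholds, fits of 4 libraries, a replicate block, DESeq2 1.42.0 and leaving out each library. Exon lengths for shares were added after the data had been seen.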

Additional observations from a re-analysis of the deposited data

How the results depend on the processing

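With 1 library left out, 570 of the 600 log2 fold changes of members kept their direction and their side of the threshold, 21 lost it, 3 gained it and 6 changed sign, and a lone library was then taken to vary like the other groups. The number of members passing ranged, for day 10 against day 5, from 1 to 2 higher and from 1 to 3 past 4-fold, for day 20 against day 10 from 1 to 3 lower, for CD organoids against day 10 from 3 to 7 higher, and for CD organoids against adult CD cells from 0 to 1 higher. Among all genes it ranged from 1595 to 2918 higher in the first of these comparisons, and from 1244 to 2717 higher and from 1008 to 2734 lower in the second. The sign changed for values that had not passed, which ranged from -0.099 to 0.21 for *Notch2* and from -0.042 to 0.63 for *Hes1* between days 5 and 10, from -0.86 to 0.086 for *Heyl* between days 10 and 20, and from -0.23 to 0.43 for *Jag2* in CD organoids against day 10.

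At an adjusted p of 0.05, 3855 genes were higher at day 10 than at day 5 and 3903 lower at day 20 than at day 10. With a prior count of 5, 518 and 548 genes passed 4-fold in these comparisons. Fits of only the 4 libraries compared gave, for day 10 against day 5, 1173 genes higher and 1341 lower, for day 20 against day 10, 1392 genes higher, 1112 genes lower and 1 member lower, and 2 members higher in CD organoids than in adult CD cells. Without a composition factor, CD organoids against adult CD cells gave 7427 genes and 3 members higher and 1 member past 4-fold, and adult CD cells against day 10 gave 2 members lower and 3 past 4-fold, with *Notch1* at -0.34 and *Notch2* at -0.27 in place of values above 0. *Jag2* in CD organoids against day 10 was then -0.046. In CD organoids against adult CD cells 2 members were higher with upper-quartile factors and 0 with DESeq2, against 1 with DESeq2 and 2 with edgeR at an unadjusted p under 0.05. The cause of these shifts was not tested, and the fits of 4 also rested on fewer libraries.

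A block for the replicate number kept all 60 fold changes of members on their side of the threshold. For CD organoids against day 10 it gave 6 members higher and 2 lower, with *Dll4* at a log2 fold change of 5.22. The deviations of same-numbered libraries correlated above 0.1 in 0 of 10 pairs of groups and below -0.1 in 1 (days 10 and 20, -0.102). With 2 libraries a group, these values cannot settle whether the numbers pair the libraries. Shares moved by more than their SD in 45 of 50 cases when counts were not divided by length, and in 26 of 50 with exon lengths. With 2 libraries a group, the test leans on the spread shared by all genes, and *Dll4*, *Dll1* and *Heyl* rest on low counts in UB organoids.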

Other observations

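Other members of the pathway lists had courses of their own in mUBCM. *Notch4* stood at 1.24 and 0.898 CPM at day 5, 3.97 and 4.19 CPM at day 10 and 1.21 and 1.72 CPM at day 20, so that the day 10 libraries were above the others, and the log2 fold change was 1.89 between days 5 and 10 (adjusted p = 9.26e-06) and -1.45 between days 10 and 20 (adjusted p = 1.37e-04, both by the quasi-likelihood test of edgeR with the adjustment of Benjamini and Hochberg). *Lfng*, the modifier of ligand choice, had a like course, at 8.07 and 10.7 CPM at day 5, 21.2 and 27.0 CPM at day 10 and 9.29 and 8.13 CPM at day 20. *Hey2*, a further Hey repressor, was below 1 CPM at days 5 and 10 and at 3.82 and 4.495 CPM at day 20. In adult CD cells it stood at 5.35 and 4.40 CPM, whereas *Hes1* and *Hey1* were highest at day 20. *Nrarp* was at 1.59 and 1.06 CPM at day 10 and 1.46 and 1.59 CPM at day 20, a log2 fold change of 0.20 (adjusted p = 0.678). These genes were picked after their values had been seen.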
